A study of Mus musculus with 6 samples.

Results

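The DNA methylation of CpG sites whose closest gene is an olfactory receptor (OR) or a vomeronasal receptor gene was examined in GS cells, which are cultured mouse spermatogonia that include spermatogonial stem cells. Members were the autosomal sites whose closest gene symbol belongs to the OR family, to the vomeronasal type 1 receptors (Vmn1r) or to the vomeronasal type 2 receptors (Vmn2r), and that were read at least 10 times in all 6 libraries. There were 2389 such commonly covered sites among 673546 autosomal sites covered in the same way. They lay closest to 499 receptor genes of the 1130 in the table, with 1443 sites at 333 OR genes, 584 sites at 93 Vmn1r genes and 362 sites at 73 Vmn2r genes.

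GS cells of the genotype DBA/Tg14(act-EGFP-OsbY01), which carry an EGFP transgene under an actin promoter, had been kept frozen for 6 months either on the International Space Station (Space GS cells) or on Earth (Ground GS cells). Both groups were thawed, cultured on feeder cells and passaged before genomic DNA was taken, so cells lost at thawing are not in these data. Reduced representation bisulfite sequencing (RRBS) was performed on 3 replicates of each group. RRBS cuts DNA at CCGG and reads the ends of the fragments after a treatment that leaves methylated cytosines unchanged, so that the DNA methylation level of a site is the percent of its reads that were methylated. The replicates are separate samples by their titles, and the study counts them as experiments, but the sources used here do not say how the cultures of each group were separated. The p-values measure the spread between these samples.

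ORs are seven-transmembrane receptors that detect odorants in the main olfactory epithelium, and each olfactory neuron is known to express a single OR gene from a single allele. Vmn1r and Vmn2r receptors detect pheromones and other social signals in the vomeronasal organ, the Vmn2r proteins with a large extracellular domain. Their genes lie in large clusters, are silent in most tissues and typically have promoters that are poor in CpG.

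The reads summed over all sites ranged from 28535973 to 33743845 per library, and the median coverage of receptor sites was 20 to 25 reads, against 27 to 32 reads at other sites. At the minimum of 10 reads, 1 read moves a level by 10 percentage points. The 10 listed promoters of germ line genes such as *Dazl* and *Ddx4*, which germ cells keep unmethylated, all had a level under 10% here (0.740% to 4.49%). Of 15865 non-receptor genes with a commonly covered site within 1 kb of the transcription start, 14275 had a mean site level under 10%. The low levels of the 10 promoters therefore do not set them apart from most genes. Receptor sites were commonly covered less often than sites of other genes, at 15.1% of 15872 sites in the table against 30.8%. Within 1 kb of the transcription start site (TSS) these shares were 10.4% of 280 sites and 53.7% of 719913 sites. At 1 to 10 kb they were 15.7% and 25.7%. Beyond 10 kb, where most receptor sites of the table lie, they were close, at 14.8% and 16.5%.

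The RefSeq promoters of the receptor genes, on the mouse build GRCm38.p6, hold few of the sites that RRBS can read. A promoter of 300 bases (250 before and 50 after the start) was found for 914 of the 1130 receptor genes. The median number of CG in it was 1, against 7 in the promoters of all 27025 genes, and 31.5% of the receptor promoters held no CG, against 5.78% of all. The letters CCGG, which MspI cuts and which read the same on both strands, were present in 6.13% of receptor promoters and in 52.6% of all promoters. Only 3 of the 914 receptor promoters held 10 or more CG, those of *Vmn2r29* (23), *Or6d12* (13) and *Or6s1* (11).

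The promoters of 3 receptor genes with a commonly covered site near the TSS follow, each as the 250 bases before the RefSeq start on the plus strand of GRCm38.p6, with every CG in capitals. At the RefSeq start *Vmn1r4* and *Or5b118* have the usual CpG-poor form, and *Or6d12* is the one CpG-rich promoter that was read.
*Vmn1r4*, chr6:56956263-56956512, 1 CG: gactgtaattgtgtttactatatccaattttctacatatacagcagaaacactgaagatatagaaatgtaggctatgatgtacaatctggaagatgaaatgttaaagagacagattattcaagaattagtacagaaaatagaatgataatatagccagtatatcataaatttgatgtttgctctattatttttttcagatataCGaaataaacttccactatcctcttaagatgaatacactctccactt
*Or5b118* (RefSeq symbol *Olfr1474*), chr19:13470722-13470971, 0 CG: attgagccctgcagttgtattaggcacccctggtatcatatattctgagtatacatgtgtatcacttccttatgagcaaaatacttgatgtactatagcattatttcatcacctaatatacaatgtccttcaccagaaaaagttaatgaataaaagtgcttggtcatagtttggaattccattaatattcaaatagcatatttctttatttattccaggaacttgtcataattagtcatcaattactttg
*Or6d12* (RefSeq symbol *Olfr212*), chr6:116506266-116506515, 12 CG: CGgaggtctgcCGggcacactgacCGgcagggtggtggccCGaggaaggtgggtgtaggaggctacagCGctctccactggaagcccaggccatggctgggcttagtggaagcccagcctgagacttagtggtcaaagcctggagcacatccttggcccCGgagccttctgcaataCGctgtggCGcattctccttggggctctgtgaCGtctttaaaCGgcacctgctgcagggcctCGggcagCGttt
The deposited coordinates are those of mm39, and no GRCm38.p6 coordinate was carried over to them. In *Or6d12* all 4 listed sites of the window fell on a CG of the printed sequence when counted from the TSS. The CG at 210 and at 182 bases before the start were the commonly covered ones, and they follow a CCGG that begins 227 bases before the start. In *Vmn1r4* and *Or5b118* none of the 5 and 1 listed sites fell on a CG of the RefSeq promoter, so that for these genes the table's TSS and the RefSeq start differ. The sequences printed for *Vmn1r4* and *Or5b118* therefore do not show the CpG sites that were read. They do not tell whether those sites lie in CpG-poor sequence. By their positions, the 5 sites of *Vmn1r4* lie close together, from 56900967 to 56901032 on mm39. The median receptor promoter of 300 bases held 1 CG.

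Sites near receptor genes were mostly methylated, at every distance from the TSS. The mean level of the 2389 receptor sites was 65.8%, 65.7% and 65.7% in the Space replicates and 65.7%, 65.4% and 65.6% in the Ground replicates. The 671157 sites of other genes had a mean level of 19.5% to 20.1% in the same libraries, but these lie largely at CpG-rich promoters. The comparison was therefore made within classes of distance.

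Within 1 kb of the TSS, the 29 receptor sites had a mean level of 62.9%, and the 386674 other sites had 2.45%. The difference was 60.4 ± 2.10 percentage points (SD over 6 libraries). At 1 to 10 kb, 889 receptor sites had 60.7% and 122456 other sites had 27.4%, a difference of 33.4 ± 0.321 percentage points. Beyond 10 kb, 1471 receptor sites had 68.7% and 162027 other sites had 55.5%, a difference of 13.2 ± 0.314 percentage points. Receptor sites were higher in 6 of 6 libraries in each class (exact sign-flip permutation test, two-sided, adjusted p = 0.03125 for each of the 3 classes, the smallest that 6 libraries allow). The size of the excess away from the TSS depended on how sites were weighted. With each closest gene weighted equally, receptor genes had 70.7%, 68.3% and 71.9% in these classes, and other genes had 8.66%, 58.6% and 71.2%. The differences were then 62.0 ± 1.74 percentage points within 1 kb, 9.70 ± 0.373 at 1 to 10 kb and 0.671 ± 0.257 beyond 10 kb (SD over 6 libraries, exact sign-flip permutation test, adjusted p = 0.03125 for each). With reads pooled over sites the difference beyond 10 kb was 7.64 percentage points.

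**Figure D1:**
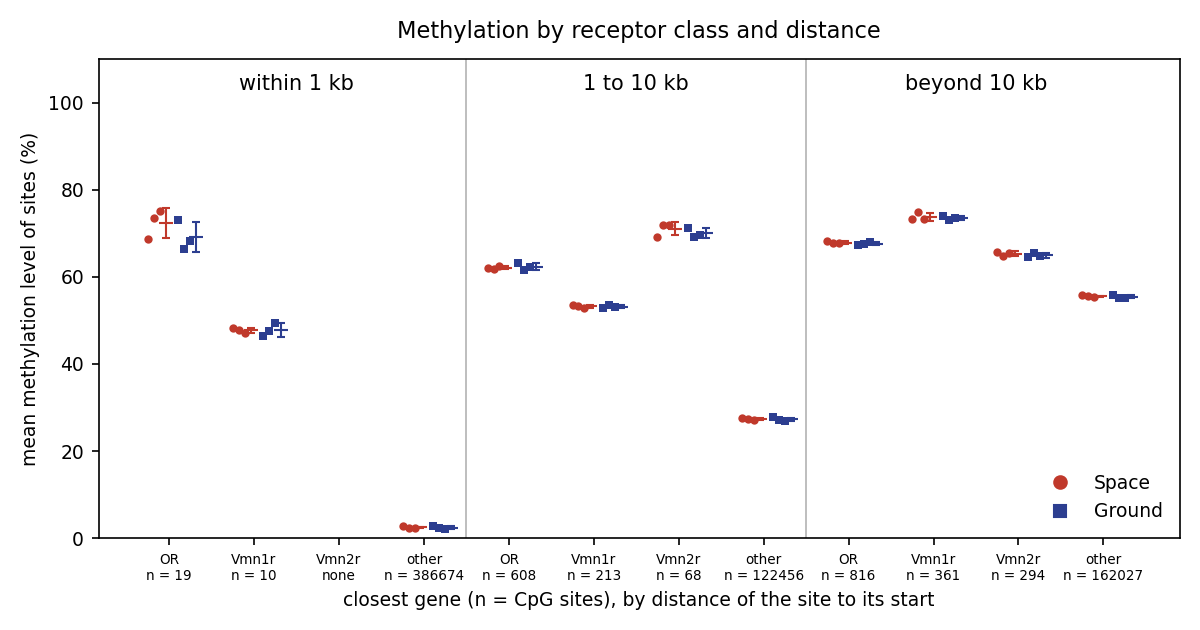
Mean DNA methylation level (%) of the CpG sites closest to OR, Vmn1r, Vmn2r and other genes, by distance to the TSS. Points are libraries (circles, Space; squares, Ground), and bars are the mean ± SD of the 3 replicates of a group. Sites of other genes stand at 2.45% within 1 kb, where OR and Vmn1r sites stand at 70.8% and 47.7%, and Space and Ground overlap in every class.

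Receptor sites also differed from other sites in how their levels were spread. At 1 to 10 kb, 49.9% to 50.8% of receptor sites per library had an intermediate level of 10% to 90%, against 12.4% to 13.9% of other sites. Beyond 10 kb the shares were 44.7% to 46.7% and 22.9% to 24.4%. The difference was 37.2 ± 0.646 percentage points at 1 to 10 kb and 22.3 ± 0.550 beyond 10 kb (SD over 6 libraries), in the same direction in 6 of 6 libraries (exact sign-flip permutation test, two-sided, adjusted p = 0.03125 for both). Receptor sites had fewer reads, which by itself spreads levels read in 1 library, and the part of this in the result was not tested. With genes weighted equally the differences were 30.7 ± 1.65 and 20.7 ± 0.676 percentage points. From the mean of the 6 libraries the shares were 51.5% and 10.4% at 1 to 10 kb, and 45.7% and 20.6% beyond 10 kb. Over all distances, 340 receptor sites (14.2%) had a mean level under 10% and 906 (37.9%) had one over 90%.

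**Figure D2:**
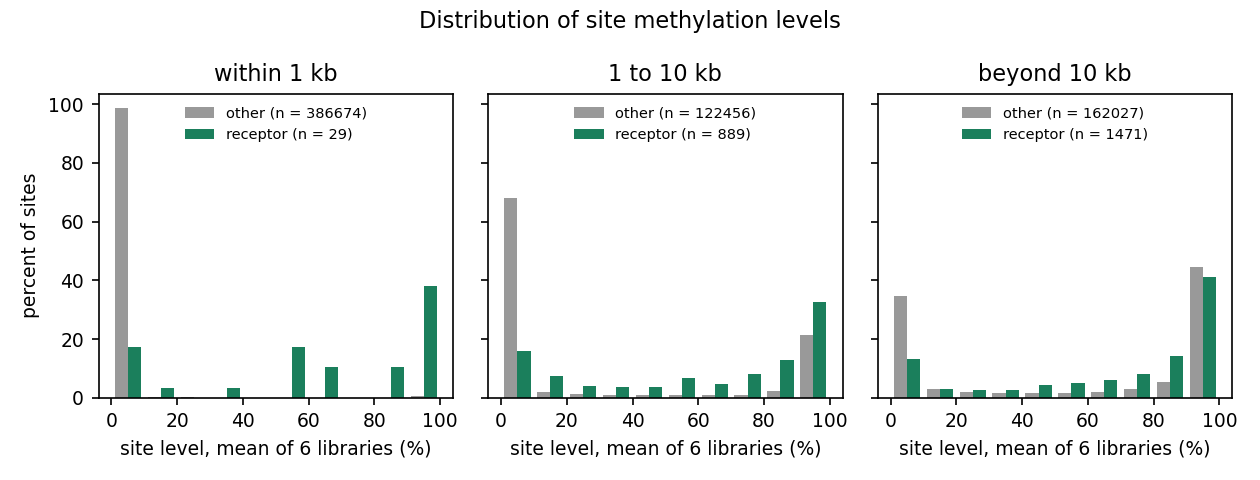
Percent of CpG sites by their DNA methylation level (mean of 6 libraries, in steps of 10 percentage points) for receptor sites (green) and other sites (grey), in 3 classes of distance to the TSS. Other sites pile up under 10% within 1 kb (98.7%), whereas the highest bar of receptor sites is the one over 90% at each distance. At 1 to 10 kb and beyond 10 kb every intermediate step holds receptor sites, and within 1 kb the 29 sites leave 3 steps empty.

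The local density of CpG sites was not used to choose the members, and it went with the level. For each site beyond 1 kb of a TSS, the other sites of the table within 100 bp were counted. With 0 to 2 such neighbors, 709 receptor sites had a mean level of 72.9%, and 76762 other sites had 76.1%. With 3 to 5 neighbors the levels were 68.2% and 59.1%, with 6 to 10 they were 61.8% and 34.0%, and with 11 or more they were 42.9% and 4.67%. The difference of receptor minus other sites was thus -3.16 ± 0.267 percentage points where CpG sites were sparsest and 38.2 ± 0.628 where they were densest (SD over 6 libraries). The direction was the same in 6 of 6 libraries within each of the 4 density classes (exact sign-flip permutation test, two-sided, adjusted p = 0.03125 for each). With genes weighted equally the differences were -2.82, 7.60, 25.7 and 45.7 percentage points from the sparsest to the densest class. The densest class held 195 receptor sites at 34 genes, and 45.1% of these sites had a level under 10%, against 95.3% of other sites.

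**Figure D3:**
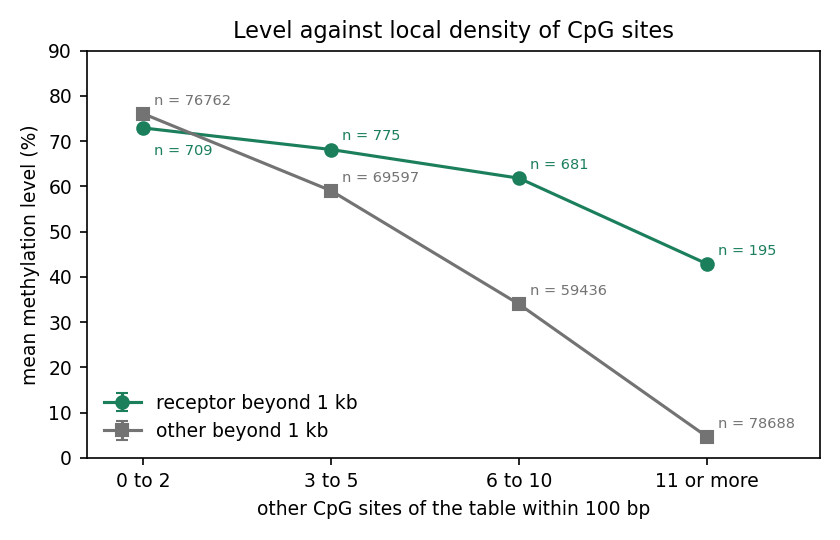
Mean DNA methylation level (%) of receptor sites (circles) and other sites (squares) beyond 1 kb of the TSS, against the number of other CpG sites of the table within 100 bp. Bars are the SD over 6 libraries and are mostly smaller than the symbols. The lines cross, with receptor sites at 72.9% against 76.1% in the sparsest class and at 42.9% against 4.67% in the densest.

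The 3 receptor classes had close mean levels over all distances. The level was 65.5% at OR sites, 65.7% at Vmn1r sites and 66.2% at Vmn2r sites. The difference of OR minus Vmn1r sites was -0.268 ± 0.517 percentage points (SD over 6 libraries, exact sign-flip permutation test, adjusted p = 0.281), with OR sites higher in 1 of 6 libraries. OR minus Vmn2r sites was -0.682 ± 0.442 (higher in 0 of 6, adjusted p = 0.0938), and Vmn1r minus Vmn2r sites was -0.414 ± 0.650 (higher in 2 of 6, adjusted p = 0.281). This closeness depended on how sites were weighted. With reads pooled over sites, the OR level exceeded the Vmn1r level by 25.6 percentage points, and 13 sites closest to *Vmn1r261*, read 1107 to 1324 times per library at a mean level of 12.9%, were the only receptor sites with over 1000 reads.

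The levels by class and distance were not tested against each other. OR sites had a mean level of 70.8% within 1 kb (19 sites), 62.2% at 1 to 10 kb (608 sites) and 67.8% beyond 10 kb (816 sites). Vmn1r sites had 47.7% (10 sites), 53.2% (213 sites) and 73.7% (361 sites) in the same order, while Vmn2r sites had 70.5% at 1 to 10 kb (68 sites) and 65.1% beyond 10 kb (294 sites), with 0 of 22 listed sites commonly covered within 1 kb. The Vmn1r sites within 1 kb belong to only 2 genes with 5 sites each, *Vmn1r4* at 1.73% and *Vmn1r65* at 94.5%, so that their mean describes neither. Compared with receptor sites beyond 10 kb, those at 1 to 10 kb differed by -7.98 ± 0.537 percentage points and those within 1 kb by -5.83 ± 2.13. Both were lower in 6 of 6 libraries (exact sign-flip permutation test, adjusted p = 0.03125 for both). With a minimum of 5 reads they were -9.05 and -15.7 percentage points (adjusted p = 0.03125 for both in the same exact sign-flip permutation test), and with a minimum of 20 reads they were -0.549 and -8.73 (adjusted p = 0.25 and 0.0625 in that exact test). Their direction depended on the weights, with 8.94 and 6.91 percentage points when reads were pooled over sites.

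Upstream sites had lower levels than downstream sites. Within 1 kb, 12 upstream sites at 6 genes had a mean level of 44.3% and 17 downstream sites at 8 genes had 76.0%. At 1 to 10 kb the levels were 58.0% (572 sites) and 65.5% (317 sites), and beyond 10 kb they were 67.0% (698 sites) and 70.2% (773 sites). This split was described and not tested, and within 1 kb 3 of the 12 upstream sites belong to *Vmn1r4*. Within the OR family, 109 sites at 23 class I genes (*Or51* to *Or56*, the fish-like receptors, all on chromosome 7) had a mean level of 65.2%, and 1334 sites at 310 class II genes had 65.5%. The difference was -0.303 ± 0.826 percentage points (SD over 6 libraries, class I higher in 2 of 6, exact sign-flip permutation p = 0.4375). With genes weighted equally it was 2.21 ± 1.28 percentage points (class I higher in 6 of 6, exact sign-flip permutation p = 0.03125), so that the order of the OR classes rested on the weights.

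Only 13 receptor genes had a commonly covered site within 1 kb of the TSS, 11 ORs and 2 Vmn1r genes. For each, reads were summed over these sites. Of the 13, 7 had a level over 90%, 4 lay between 50% and 80%, 1 lay between 10% and 50%, and 1 lay under 10%. Of the 15865 other genes with such a site, 14275 had a mean site level under 10%.

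*Vmn1r4* (ENSMUSG00000071893, chromosome 6, mm39, TSS at 56901000) was the unmethylated one. Its 5 sites lay from 32 bp upstream to 33 bp downstream of the TSS, at positions 56900967 to 56901032, and were read 17 to 57 times. The level was 2.38%, 0% and 0% in the Space replicates and 2.53%, 1.69% and 3.80% in the Ground replicates. At the best read site, 0 methylated reads of 57 and of 45 allow levels up to 5.26% and 6.67% in Space GS cells 2 and 3, so these values do not separate the groups (0.794% ± 1.37 and 2.67% ± 1.07, SD, n = 3, exact permutation p = 0.2). Without this gene the mean level of the other 24 receptor sites within 1 kb was 75.6%.

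*Or6d12* (ENSMUSG00000053251, chromosome 6, TSS at 116483477), whose CpG-rich promoter is printed above, had the next lowest level. Its 2 commonly covered CpG sites, at 116483267 and 116483295 (209 and 181 bp upstream of the TSS as the table counts), shared the same 15 to 21 reads. Over both sites the level was 13.9%, 23.5% and 22.2% in the Space replicates and 50%, 16.7% and 15% in the Ground replicates. Ground GS cells 1 stood above the other 5 libraries, which ranged from 13.9% to 23.5%. The site nearer to the TSS was more methylated (33.0%, mean of 6 libraries) than the farther one (14.1%), and reached 73.3% in Ground GS cells 1.

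*Or5b118* (ENSMUSG00000096273, chromosome 19) had 1 site 27 bp upstream of the TSS, at 13446901. The level was 58%, 58.5% and 50% in Space GS cells and 56.8%, 52.8% and 57.4% in Ground GS cells, intermediate in all 6 libraries. *Or10ag55-ps1* (3 sites from 352 to 404 bp upstream), *Or8s5* (4 sites from 391 to 419 bp downstream) and *Or6c204* (1 site 724 bp upstream) were also intermediate. Their levels in Space and Ground GS cells were 62.4% ± 5.46 and 54.2% ± 5.90, 67.6% ± 8.02 and 60.1% ± 14.6, and 61.8% ± 6.94 and 58.3% ± 2.06 (SD, n = 3). The cells have a mixed C57BL/6 and DBA/2 background, and a C-to-T difference between the strains would read as unmethylated. Whether one lies at these sites was not tested.

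The gene over 90% with the closest site was *Or1e1d-ps1* (ENSMUSG00000108605, chromosome 11), with 2 sites, the nearer one 94 bp downstream of the TSS. It had 93.4%, 92.1% and 97.5% in Space GS cells and 88.6%, 100% and 100% in Ground GS cells. *Vmn1r65* (5 sites), *Or2b11*, *Or6ae1*, *Or1p1b*, *Or2bd2* (2 sites) and *Or56a4*, from 348 to 848 bp of the TSS, had levels of 91.3% to 96.2% over the 6 libraries. In *Or6ae1* (1 site, 412 bp downstream, 12 to 19 reads) all 3 Space replicates were at 100% and the Ground replicates were at 84.6%, 93.3% and 89.5%. This was the only one of the 13 genes with no overlap of the groups (two-sided exact permutation p = 0.1, the lowest value that 3 against 3 can give). Its adjusted p over the 13 genes was 0.65. In this exact permutation test, groups that do not differ separate fully with a probability of 0.1.

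**Figure D4:**
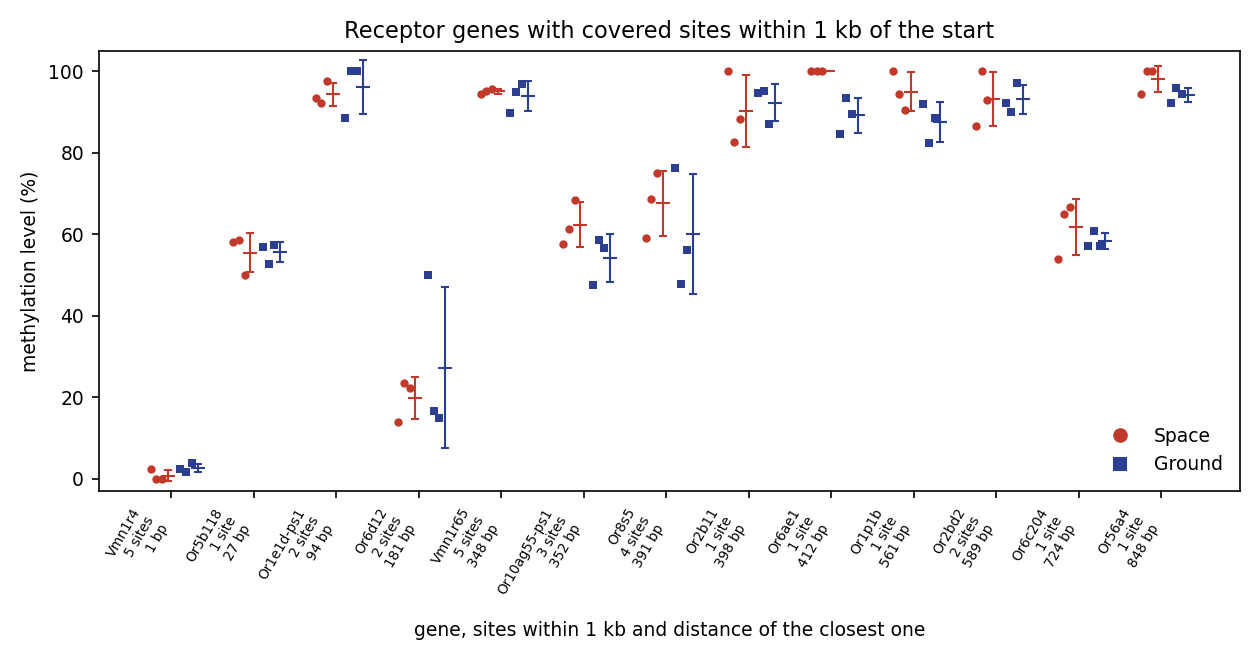
DNA methylation level (%) of the 13 receptor genes with covered sites up to 1 kb from the TSS, ordered by the distance of the closest site. Points are libraries (circles, Space; squares, Ground), with reads summed over the sites of a gene, and bars are the mean ± SD of the 3 replicates. *Vmn1r4* lies between 0% and 3.80%, *Or6d12* holds 1 high Ground library at 50%, and 7 genes lie over 90%.

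Farther from the TSS, methylated and unmethylated stretches alternated. Neighboring receptor sites within 100 bp of each other had the same coverage in all 6 libraries in 70.9% of 1536 pairs, as sites of the same fragment do, and such sites are not separate measurements. Sites were therefore also joined into regions of 3 or more sites with gaps of up to 100 bp, which gave 323 receptor regions with 1677 sites. Of these, 36 (11.1%) had a level under 10%, 193 (59.8%) had one of 10% to 90%, and 94 (29.1%) had one over 90%. Of 47926 other regions, 58.4%, 16.5% and 25.1% fell in these classes. The 36 unmethylated regions lay 2632 to 52472 bp from the closest receptor TSS, and 21 of them lay beyond 10 kb.

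The genes with most commonly covered sites in each class were *Vmn1r53* (36 sites), *Vmn1r261* (31) and *Vmn1r41* (28), *Vmn2r86* (29), *Vmn2r18* (19) and *Vmn2r82* (17), and *Or2o1* (27), *Or51f1e* (26) and *Or10q3* (23). All sites of *Or2o1* (chromosome 11) formed 1 unmethylated region of 345 bp, from 49060024 to 49060368, lying 14821 to 15165 bp past the TSS. Its level was 5.02%, 1.46% and 1.74% in Space GS cells and 2.06%, 2.12% and 1.68% in Ground GS cells. *Vmn1r53* (chromosome 6) held a gradient upstream of its TSS. A region of 15 sites at 8338 to 8511 bp had 1.93% ± 1.86 in Space and 1.12% ± 0.729 in Ground GS cells, a region of 6 sites at 7545 to 7728 bp had 11.4% ± 3.69 and 10.01% ± 1.98, and one of 5 sites at 4615 to 4727 bp had 98.2% ± 0.601 and 99.0% ± 0.294 (SD, n = 3).

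*Vmn2r86* (chromosome 10) showed the same kind of boundary. Its region of 16 sites at 14417 to 14588 bp upstream had 3.27% ± 2.63 in Space and 1.07% ± 0.762 in Ground GS cells, whereas 4 sites at 17387 to 17468 bp upstream had 88.7% ± 1.15 and 93.5% ± 2.27 (SD, n = 3). In *Or10q3* (chromosome 19), 12 sites at 3360 to 3509 bp upstream had 0.530% ± 0.669 and 3.00% ± 2.76, and a region of 9 sites at 6057 to 6118 bp downstream had 48.7% ± 3.53 and 45.0% ± 2.84 (SD, n = 3). *Or51f1e* (chromosome 7) was methylated throughout, with 92.7% ± 0.920 and 94.4% ± 0.989, and *Vmn1r41*, *Vmn2r18* and *Vmn2r82* had 77.8% ± 1.97 and 78.6% ± 2.46, 78.8% ± 1.16 and 80.4% ± 0.684, and 77.6% ± 2.13 and 79.9% ± 1.88 (SD, n = 3). A site is assigned to a receptor gene because its TSS is the closest, which does not show that the site belongs to that gene, and some unmethylated stretches are far from any receptor TSS.

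**Figure D5:**
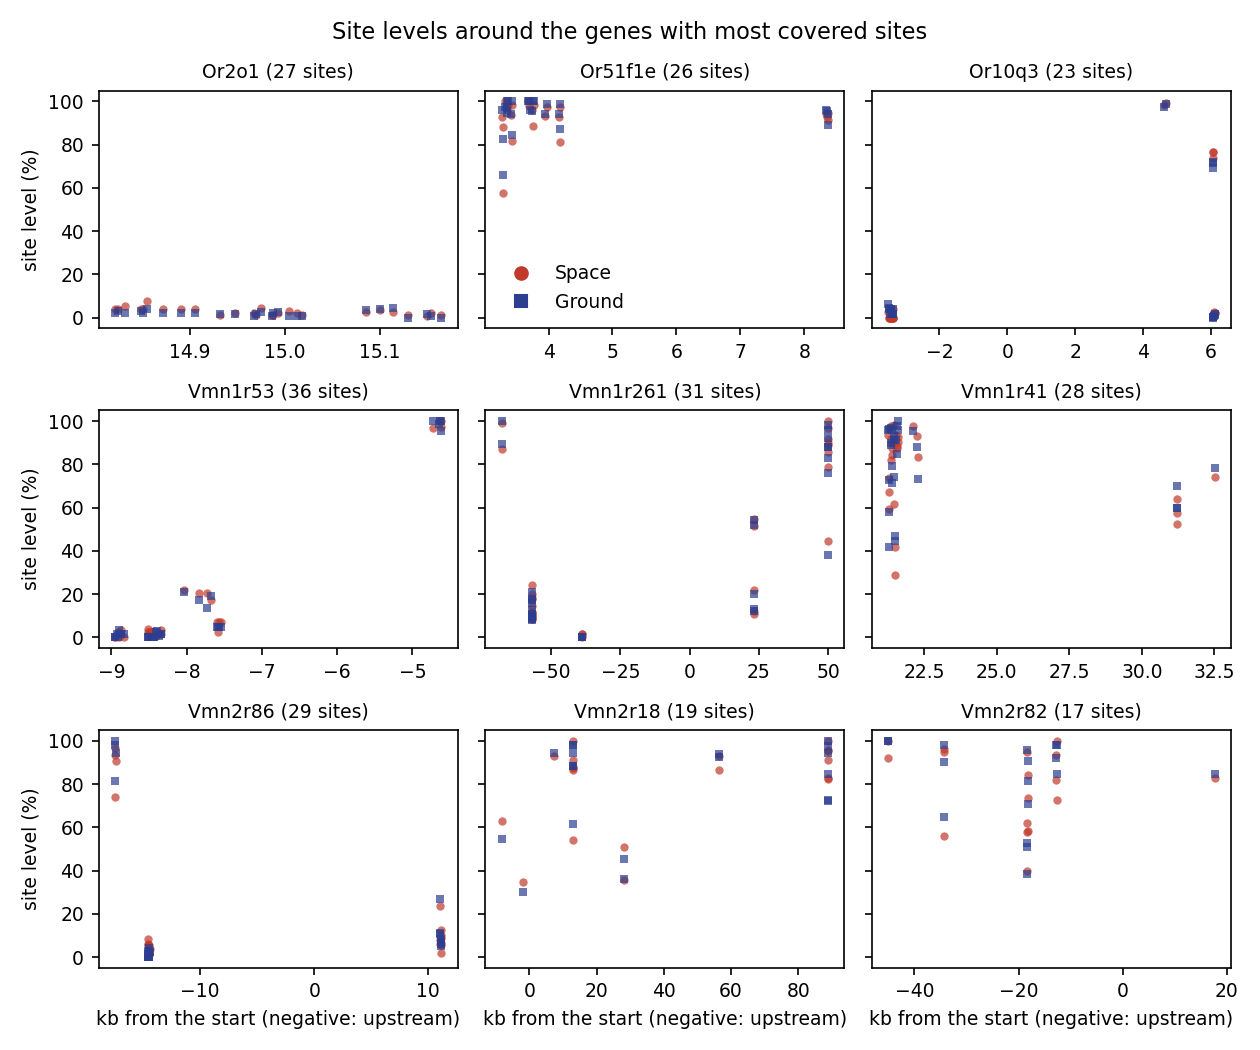
DNA methylation level (%) of single CpG sites against their distance from the TSS in kb (negative, upstream) for the 9 genes with most commonly covered sites in their class. Circles are means of 3 Space replicates and squares of 3 Ground replicates. Unmethylated and methylated stretches stand apart in *Vmn1r53* and *Vmn2r86*, and unmethylated and intermediate ones in *Or10q3*. Sites of *Or2o1* lie at 0.521% to 5.70% and those of *Or51f1e* at 61.8% to 100% (means of 6 libraries).

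The question of the study, whether storage in space changed DNA methylation, was then put to the receptor sites. Their mean level was 65.7% ± 0.0347 in Space and 65.6% ± 0.189 in Ground GS cells (SD, n = 3), a difference of 0.167 percentage points (exact permutation test, two-sided, p = 0.2). OR sites differed by 0.0663 percentage points (65.5% ± 0.204 and 65.4% ± 0.321, exact permutation p = 0.7, adjusted p = 0.9), Vmn1r sites by 0.194 (65.8% ± 0.583 and 65.6% ± 0.120, p = 0.9, adjusted p = 0.9) and Vmn2r sites by 0.528 (66.4% ± 0.344 and 65.9% ± 0.228, p = 0.2, adjusted p = 0.6). By distance, the differences were 2.05 percentage points within 1 kb (63.9% ± 2.01 and 61.8% ± 2.01, exact permutation p = 0.3), -0.0898 at 1 to 10 kb (60.7% ± 0.236 and 60.8% ± 0.580, p = 0.9) and 0.286 beyond 10 kb (68.8% ± 0.150 and 68.5% ± 0.151, p = 0.2). Adjusted over the 3 distances, these p-values were 0.45, 0.9 and 0.45. With 3 replicates against 3 no p can be below 0.1, so no such comparison could pass 0.05.

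Single sites were tested with a quasi-binomial model of their reads, moderated with limma, among sites with a mean level of 5% to 95%. None of 1527 receptor sites tested had an adjusted p under 0.05 (smallest 0.774), and 81 (5.30%) had an unadjusted p under 0.05. Over all 90304 sites tested, 0% were called and 5.59% had an unadjusted p under 0.05, so the share at receptor sites lay near the background. With reads summed over the sites of a gene, 0 of 283 receptor genes with at least 3 sites were called, and 3 (1.06%) had an unadjusted p under 0.05, against 5.22% of all 22804 genes. Of the 323 receptor regions, 0 were called and 11 (3.41%) had an unadjusted p under 0.05, against 5.61% of all 48249 regions. By edgeR's quasi-likelihood test 0 receptor sites, genes and regions were called. An unadjusted p under 0.05 was found there for 50 receptor sites (3.27%, against 4.08% of all), 11 genes (3.89%, against 4.57%) and 4 regions (1.24%, against 4.03%). By limma on log2 ratios 0 were called as well, with 71 sites (4.65%, against 4.65%), 21 genes (7.42%, against 4.80%) and 5 regions (1.55%, against 4.82%) at an unadjusted p under 0.05. The share of receptor genes thus lay below the background in the quasi-binomial and edgeR tests and above it by limma on log2 ratios.

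As a share of all commonly covered sites, more receptor sites than sites in general differed by over 20 percentage points, in both directions. There were 12 higher in Space GS cells (0.502%, against 0.111% of all commonly covered sites) and 13 lower (0.544%, against 0.0812%). The median of the lowest coverage over the 6 libraries was 12 reads at these 25 sites and 16 reads at all receptor sites, against 21 reads at other sites. Receptor sites were also more often at intermediate levels, with 63.9% of them at 5% to 95% against 13.2% of other sites. The median size of the difference in that range of levels was 5.01 percentage points for receptor sites and 4.24 for all sites.

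The 5 receptor sites with the largest difference were single CpG sites read 10 to 34 times. The site closest to *Vmn2r74* (chromosome 7, 85661864, 51028 bp upstream of the TSS) had 33.3%, 71.4% and 69.2% in Space GS cells and 7.69%, 38.5% and 30.8% in Ground GS cells. Its lowest Space replicate lay below the highest of the Ground replicates. The site closest to *Or5d40* (chromosome 2, 88019998, 7775 bp downstream) had 45%, 30% and 35.7% against 61.1%, 83.3% and 57.9%, without overlap. The site closest to *Or52e18*, a class I OR (chromosome 7, 104599514, 12312 bp downstream), had 64.3%, 53.3% and 69.2% against 46.7%, 40% and 9.09%, also without overlap.

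The site closest to *Vmn1r47* (chromosome 6, 89981078, 12050 bp upstream) had 30%, 16.7% and 41.7% in Space GS cells and 7.69%, 0% and 0% in Ground GS cells. The observed values did not overlap. In Ground GS cells 2 and 3, 0 of 13 and 0 of 18 reads allow levels up to 23.1% and 16.7%. The lowest Space replicate lies below the first limit and at the second. Each limit is from the reads of 1 library, and none was computed for the Ground replicates together. The site closest to *Or8u3-ps* (chromosome 2, 85940040, 10526 bp upstream) had 55.9%, 47.6% and 41.2% against 60%, 83.3% and 77.8%, without overlap. These 5 sites differed by 32.4, -30.5, 30.4, 26.9 and -25.5 percentage points in the order given, and their adjusted p was 0.793 to 0.834 by the quasi-binomial test moderated with limma. They were chosen by their difference, so that a lack of overlap in them is no separate evidence.

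Of the 283 receptor genes with at least 3 sites, 138 had a higher and 145 a lower level in Space than in Ground GS cells. The median size of these differences was 2.24 percentage points, against 1.01 over all 22804 genes tested. Among genes at 5% to 95% it was 2.35 and 1.44 percentage points. Receptor sites had fewer reads than other sites, which by itself widens differences, and the part of this in these sizes was not tested. The gene with the smallest p was *Vmn2r17* (chromosome 5, 5 sites 24854 to 34695 bp from the TSS), which had 85.1%, 84.4% and 86.7% in Space GS cells and 73.2%, 75.3% and 76.7% in Ground GS cells. It differed by 10.4 percentage points, with an unadjusted p of 0.0113 and an adjusted p of 0.925 by the quasi-binomial test moderated with limma. *Or51i2* (3 sites, 1379 to 1404 bp upstream) had the largest difference of these genes, with 34.9%, 29.2% and 42.1% against 65.5%, 51.2% and 38.1% (adjusted p = 0.935). There the lowest Ground replicate fell within the Space range. *Vmn1r261* differed by 1.19, *Or10ac1* by 2.57 and *Or10w1* by 8.05 percentage points, with adjusted p-values of 0.925, 0.935 and 0.935. The summed reads of *Vmn1r261* include its 13 sites with over 1000 reads.

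Genes that work with these receptors are to be read against the 14275 of 15865 other genes that had a level under 10% within 1 kb of the TSS. Of 20 genes of olfactory transduction and receptor choice, 15 had sites near the TSS (within 1 kb), and 13 of these had a level under 10%, from 0.259% in *Atf5*, a transcription factor of the feedback that fixes OR choice. The others were *Omp*, the marker protein of mature olfactory neurons (72.2% ± 4.48 in Space and 74.1% ± 7.05 in Ground GS cells, SD, n = 3), and *Rtp2*, which carries ORs to the cell surface (67.3% ± 5.70 and 69.6% ± 2.68). Of 7 genes of vomeronasal transduction in the table, 6 had such sites, all from 1.05% in the G protein subunit *Gnao1* to 2.63% in *Gnai2*, its counterpart in Vmn1r neurons. In the gene test, 0 of 18 and 0 of 7 genes of these lists were called, with 2 and 0 at an unadjusted p under 0.05 (5.22% of all genes).

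A further list was made by gene symbol, of trace amine receptors (Taar), formyl peptide receptors (Fpr), taste receptors (Tas1r, Tas2r), *H2-M10* genes and *Ms4a* genes. Not all of these genes are chemoreceptors. Their 156 sites at 32 genes had a mean level of 48.9%, from 24.5% at 25 Fpr sites to 70.6% at 18 Tas1r sites. Of 7 such genes with sites within 1 kb, 4 had a level over 80%, with 98.0% in *Ms4a15* at the top, and 2 lay under 10%, with 1.60% in *Tas1r2*, a sweet receptor subunit, at the bottom. None of the 16 tested was called, and 1 had an unadjusted p under 0.05, again against 5.22% of all genes.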

How the data were processed

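RRBS libraries (Zymo-Seq RRBS, genomic DNA) were made by the authors. The submitters' processing notes name Trim Galore, Bismark 0.24.2, methylKit and the build mm39. Their parameters, and whether duplicate reads were removed, are not given in the sources used here. The deposited table gives, for each CpG site, coverage as a read count and the methylated percent, with both strands as 1 row, and the closest TSS. Methylated reads, coverage times percent, lay within 0.000266 of a whole read. No per-sample column was left unmapped. Positions are the C of a CpG (1-based), since counted this way 39.6% and 40.5% of sites on plus and minus strand genes fell on a CG of RefSeq promoters, more than with the other 4 shifts tried. Strain alleles mapped to the reference can change levels. Intervals cover counting error only.

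Members and gene lists were chosen with earlier results of these data known. The level of a class of sites is the unweighted mean over its sites. Levels of single receptor genes and of regions are from reads summed over their sites. Groups, from the titles, were compared by exact permutation tests of library values, and members with other sites by exact sign-flip tests over libraries, with Benjamini-Hochberg adjustment. Sites, genes and regions were tested by a quasi-binomial test, moderated with limma 3.58.1 in R 4.3.3, adjusted over the whole table at 0.05. Alternatives were edgeR 4.0.16, limma on log2 ratios with 2 reads added, minima of 5 and 20 reads, other weights, a replicate block and leaving out replicates. On simulated data, 200 changed features were drawn from all features tested at 5% to 95%, not from receptor members. Changes of 20 and 40 percentage points were called in 7% and 67% of sites, 87.5% and 99.5% of genes, and 29% and 94.5% of regions. The share called among receptor members, which had fewer reads per site, was not measured. Named were the 3 genes with most sites per class, genes with a site within 1 kb (at most 15), the 5 genes with the smallest p, the 5 sites with the largest difference, and the lowest and highest member of each list. *Rtp2*, *Vmn2r29*, *Or6s1* and the density, intermediate-level and side comparisons, were chosen after values were seen. At the coverage minimum, 323 receptor sites with a lowest coverage of 9 reads had a mean level of 67.6% and 251 sites at 10 reads had 78.5%. Tables and figures were made in Python 3.11.15, the latter with matplotlib 3.10.9.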

Additional observations from a re-analysis of the deposited data

How the results depend on the processing

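The excess of receptor sites over other sites kept its direction at each distance under all alternatives, and its call except where leaving out a replicate leaves 5 libraries, which cannot reach 0.05. Its size did not hold. With genes weighted equally it was 62.0 percentage points within 1 kb, 9.70 at 1 to 10 kb and 0.671 beyond 10 kb, with pooled reads 54.5, 35.8 and 7.64, with a minimum of 5 reads 52.9, 28.9 and 10.3, and with a minimum of 20 reads 49.4, 40.2 and 15.3. Without 1 replicate it was 59.9 to 61.0 percentage points within 1 kb, 33.3 to 33.4 at 1 to 10 kb and 13.1 to 13.3 beyond 10 kb. The other contrasts depended on weights and coverage, and the cause was not tested. OR minus Vmn1r, OR minus Vmn2r and Vmn1r minus Vmn2r sites, which were not called, were -1.47, -3.99 and -2.52 with a minimum of 5 reads, and -1.32, -4.52 and -3.20 with a minimum of 20 reads (adjusted p = 0.03125 for each of these 6 in the exact sign-flip permutation test). They were 25.6, -2.10 and -27.7 with reads pooled over sites (adjusted p = 0.03125 for each in the same exact test). Without sites over 1000 reads they were -1.47, -0.682 and 0.789 (adjusted p = 0.0469, 0.0469 and 0.0625 in that exact test). With genes weighted equally the last pair of contrasts was 0.574 and 1.76 (adjusted p = 0.3125 and 0.0938 in that exact test). Receptor sites within 1 kb and at 1 to 10 kb, each minus those beyond 10 kb, were -8.73 and -0.549 with a minimum of 20 reads, 6.91 and 8.94 with pooled reads, and -1.15 and -3.58 with genes weighted equally. Class I minus class II OR sites were 2.21 with genes weighted equally, a setting chosen after seeing the data for this contrast and for the intermediate-level and density contrasts, which kept direction and call.

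The differences between Space and Ground GS cells changed sign in 10 recomputations and kept it in 74. With a minimum of 5 reads Vmn1r sites had -0.106 and sites at 1 to 10 kb had 0.0540. With a minimum of 20 reads Vmn2r sites had -0.0751. With pooled reads, sites within 1 kb had -0.105 and sites at 1 to 10 kb had 0.395, and with genes weighted equally the latter had 0.197. Without 1 replicate, the ranges were -0.113 to 0.197 for OR sites (negative without Ground replicate 2), -0.134 to 0.425 for Vmn1r sites (negative without Space replicate 2) and -0.345 to 0.225 at 1 to 10 kb, positive at 0.0209 without Space replicate 2 and at 0.225 without Ground replicate 1. The site test called 0 to 5 sites without 1 replicate (1 without Space replicate 2, 3 without Space replicate 3 and 5 without Ground replicate 1), of which 0 were receptor sites, and the gene and region tests called 0 in each setting.

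Titles share replicate numbers, but nothing states a pairing. Deviations from the group means of receptor sites correlated at -0.00127, 0.0169 and -0.0353 for numbers 1 to 3. Over all 90304 sites tested these correlations were 0.0447, 0.0218 and 0.0108. Their mean was 0.0258, against -0.0129 for libraries of unlike number. Over these sites 2 of the 3 Space libraries correlated best with the Ground library of their own number, and over receptor sites 0 did. A pairing of the libraries is therefore not excluded. With a replicate block the difference over receptor sites was again 0.167 percentage points (exact sign-flip permutation test, smallest possible p 0.25), and the site, gene and region tests called 0 features. The precision of single sites is limited by coverage.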

Other observations

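Receptor sites on the X chromosome were not among the autosomal members. Of 384 such sites, 19 at 4 genes were commonly covered, with a mean DNA methylation level of 72.4% ± 0.996 in Space and 75.9% ± 2.09 in Ground GS cells (SD, n = 3). The difference was -3.47 percentage points, without overlap of the groups (two-sided exact permutation p = 0.1, the lowest that 3 against 3 can give).

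Among chromosomes with over 100 autosomal receptor sites, the mean level was lowest on chromosome 19 (45.9%, 104 sites at 17 genes), where 44.2% of the sites had a level under 10%, and highest on chromosome 2 (71.7%, 227 sites at 65 genes), where 7.05% did. Many of the sites under 10% on chromosome 19 lay in short regions, such as the 12 sites 3360 to 3509 bp upstream of *Or10q3*. They are therefore not all separate measurements. The lowest region of all was closest to *Or9s18* on chromosome 13 (chosen after its value was seen), with 14 sites at 0.331% ± 0.291 in Space and 0.480% ± 0.110 in Ground GS cells (SD, n = 3), 25807 to 25926 bp from the TSS.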
